A study of Mus musculus with 8 samples.

Results

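The genes described here are 10 that steer commissural axons, the axons of spinal neurons that grow across the ventral midline of the cord. They are the secreted ligands Slit1, Slit2, Slit3 and Ntn1, the receptors Robo1, Robo2, Robo3 and Dcc, and the axonal adhesion proteins Cntn2 and L1cam. They were taken by symbol, as every probe other than a control whose gene name in the files was 1 of the 10. That gave 15 of 55681 probes and 10 of 36518 named genes. The rule used no measured value, but the 10 genes were chosen with earlier results of these data known. Their shares set against all genes below are therefore descriptions of a chosen list.

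The series measured transcripts after conditional loss of Geminin, a regulator of DNA replication licensing encoded by Gmnn, in E10.5 mouse embryos of the C57BL/6 strain. Spinal neural tube and paraxial tissue were cut out by laser from 2 wild-type embryos and from 2 mutant embryos, whose genotype is labelled Gmnn fl/fl; cre/o. Each of the 4 embryos gave both tissues, so that 4 groups of 2 arrays made up the 8 Agilent 1-colour arrays. Which promoter drives the cre, and which exons it removes, are not given in the sources used here, and no floxed allele or cre is labelled for the wild-type embryos.

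As background, floor plate cells at the ventral midline secrete netrin 1 (Ntn1), which draws commissural axons through the receptor DCC, and Slit proteins, which repel axons through Robo1 and Robo2. The divergent receptor Robo3 is made by commissural neurons and lets their axons reach and enter the midline. Contactin 2 (Cntn2, also known as TAG-1) marks commissural axons before the midline, and L1cam marks them after it, while both proteins are also present on axons of other neurons.

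The probes that read the genes on which the results turn are oligonucleotides of 60 bases. Those of Robo3, Cntn2 and L1cam are shown because these genes stood apart both on array 1 of mutant neural tube and on array 1 of wild-type paraxial tissue, and that of Ntn1 because its result depends on the probe. The letters are those of the array design, 5′ to 3′, with the design's mm9 coordinates. The Robo3 probe lies at chr9:37224357-37224416, the Cntn2 probe at chr1:134413648-134414916 (a span wider than the probe), the L1cam probe at chrX:71100374-71100433 and the Ntn1 probe at chr11:68040053-68040112, each on the minus strand. No exon or untranslated region is given, because no mm9 annotation was used here.
Robo3: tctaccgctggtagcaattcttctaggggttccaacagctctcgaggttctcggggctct
Cntn2: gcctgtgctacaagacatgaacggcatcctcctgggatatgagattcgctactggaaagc
L1cam: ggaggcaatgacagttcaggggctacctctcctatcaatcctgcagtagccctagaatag
Ntn1: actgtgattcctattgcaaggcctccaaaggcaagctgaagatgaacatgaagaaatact

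All values below are scaled log2 signals: log2 of the red-channel processed signal, with each array set to the same 75th percentile. A difference of 1 is a 2-fold difference, and levels of different probes are not comparable. On single arrays 71.8% to 78.1% of the probes exceeded background clearly, and 28925 genes were tested. Gmnn itself stood at 12.37 and 12.23 in wild-type neural tube, 12.10 and 11.80 in mutant neural tube, 12.20 and 11.88 in wild-type paraxial tissue, and 11.41 and 11.40 in mutant paraxial tissue. Both mutant arrays lay below both wild-type arrays in each tissue, by 0.35 ± 0.25 (SE) in neural tube and 0.64 ± 0.25 in paraxial tissue on average, and neither difference passed the test (limma adjusted p = 0.924 and 0.998). Whether the Gmnn probe lies in the deleted part is not known, so these values do not check the genotype labels. Across all genes tested, wild-type neural tube 1 correlated more with wild-type paraxial 1 (Pearson r 0.973) than with wild-type neural tube 2 (0.953). Mutant neural tube 1 likewise correlated more with mutant paraxial 1 (0.970) than with mutant neural tube 2 (0.960). The tissues of embryo 2 correlated at 0.953 in wild type and 0.956 in mutants. Most marker genes still followed the tissue labels. Of 15 neural progenitor genes, 14 were higher in neural tube (Sox2 by 2.22 ± 0.31 and Pax6 by 2.52 ± 0.30), and of 18 dermomyotome and myotome genes, 15 were lower (Des by -3.80 ± 0.22) and 1 was higher, all at a limma adjusted p under 0.05.

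The arrays of a group differed in neuronal transcripts. The mean deviation of 20 neuron markers from their own means over the 8 arrays was 0.92 and 0.68 in wild-type neural tube, -0.16 and 0.84 in mutant neural tube, 0.44 and -0.78 in wild-type paraxial tissue, and -1.04 and -0.91 in mutant paraxial tissue. All 20 markers were well above background on all 8 arrays, paraxial ones included. Array 1 of mutant neural tube lay below the mean of the other 3 neural tube arrays for 19 of the 20 markers (median difference -0.98, range -2.37 to 0.25). Array 1 of wild-type paraxial tissue lay above the mean of the other 3 paraxial arrays for 17 of the 20 (median difference 1.55, range -0.18 to 2.69). That array was also the highest paraxial array for other neural markers. Mean deviations in wild-type paraxial 1 and 2, then mutant 1 and 2, were -0.11, -0.99, -0.57 and -1.51 for neural progenitor genes. They were 0.87, -0.04, -0.28 and -0.20 for neural crest and dorsal root ganglion genes. Since the material is bulk tissue, fewer cells of a type and less RNA per cell cannot be told apart. The 10 floor plate markers had mean deviations of 0.64, 0.61, 1.07 and 0.77 in the 4 neural tube arrays (wild type 1 and 2, then mutant 1 and 2) and -1.19, -0.85, -0.51 and -0.55 in the paraxial arrays in the same order. All 10 were well above background on each neural tube array. On the paraxial arrays 7, 9, 8 and 8 of them were, so the paraxial means include values near background.

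The first comparison asks where each guidance gene is transcribed. Averaged over both genotypes, 5 of the 10 genes rose in neural tube over paraxial tissue: Slit1, Slit2, Robo3, Dcc and Cntn2. By the same limma test 12% of all genes differed between the tissues, and 6% were higher in neural tube. No guidance gene was lower in neural tube by that test. In wild type alone Slit1 passed (1 of 10, against 2.43% of all genes in either direction and 0.771% higher), and in mutants alone Slit1 and Dcc passed (2 of 10, against 5.82% and 2.68%). The median tissue difference of the 10 genes was 1.02, against -0.02 for all genes. In 8 of the 10 genes neural tube exceeded paraxial tissue within every one of the 4 embryos, a pattern shown by 18.1% of all genes, and the exceptions were Ntn1 and Robo1. Both neural tube arrays lay above both paraxial arrays for 8 of the 10 in wild type (18.3% of all genes) and for 7 of the 10 in mutants (16.6%).

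**Figure D1:**
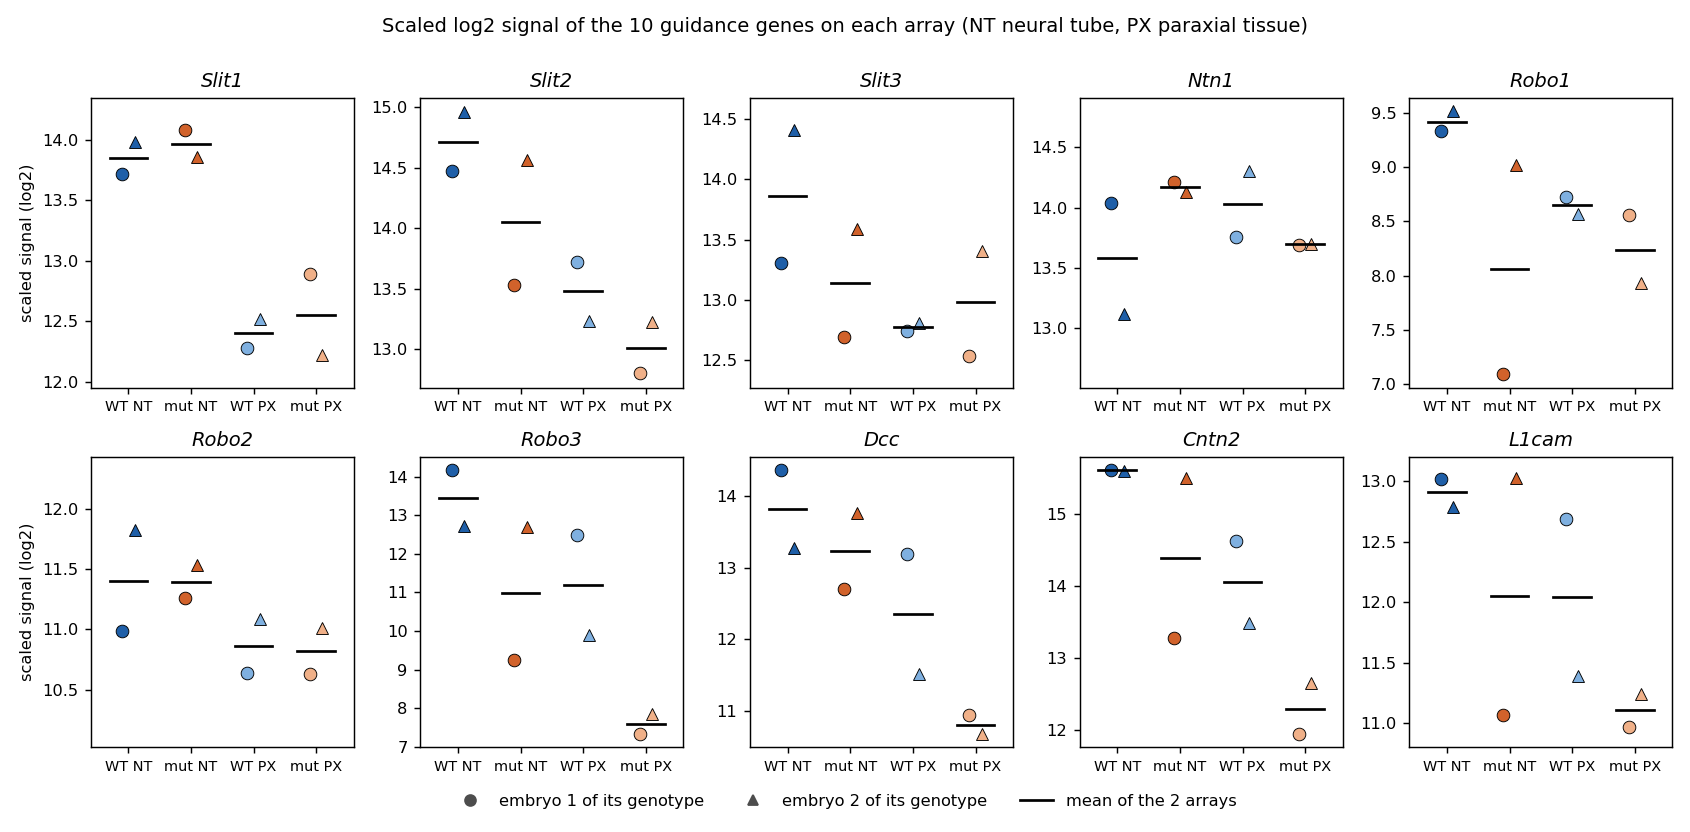
Scaled log2 signal (vertical axis) of each of the 10 guidance genes on each of the 8 arrays, in the 4 groups (horizontal axis). Circles and triangles are embryos 1 and 2 of a genotype and black lines the group means. Slit1 separates the tissues in both genotypes, while Robo3 runs from 7.33 to 14.16 and differs widely within groups.

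The Slit ligands are taken first, and Slit1 and Slit2 rose in neural tube. Slit1, a midline repellent, read 13.72 and 13.98 in wild-type neural tube, 14.08 and 13.86 in mutant neural tube, 12.28 and 12.52 in wild-type paraxial tissue, and 12.89 and 12.22 in mutant paraxial tissue. All 4 neural tube arrays lay above all 4 paraxial arrays. The average difference was 1.44 ± 0.13 (SE), a 2.70-fold higher level in neural tube (limma adjusted p = 0.00244). It was 1.46 ± 0.19 in wild type (limma adjusted p = 0.0163) and 1.41 ± 0.19 in mutants (limma adjusted p = 0.0137), and the difference between those values was -0.04 (95% interval -0.66 to 0.58). Within the embryos it was 1.45 and 1.46 in wild type, and 1.19 and 1.64 in mutants.

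Slit2, another ligand of the Robo receptors, read 14.47 and 14.96 in wild-type neural tube, 13.53 and 14.56 in mutant neural tube, 13.72 and 13.23 in wild-type paraxial tissue, and 12.80 and 13.22 in mutant paraxial tissue. Its tissue groups did not overlap within either genotype, but mutant neural tube 1 lay between the wild-type paraxial arrays. The average difference was 1.14 ± 0.20, a 2.20-fold higher level (limma adjusted p = 0.0150). Slit3, the third member of the family, read 13.31 and 14.41 in wild-type neural tube, 12.69 and 13.59 in mutant neural tube, 12.74 and 12.81 in wild-type paraxial tissue, and 12.54 and 13.41 in mutant paraxial tissue. Its tissue groups were apart in wild type and overlapped in mutants, and the average difference of 0.62 ± 0.22 did not pass (limma adjusted p = 0.126).

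Ntn1, the attractant of the floor plate, showed no tissue difference that passed. It read 14.04 and 13.12 in wild-type neural tube, 14.21 and 14.13 in mutant neural tube, 13.76 and 14.30 in wild-type paraxial tissue, and 13.69 and 13.70 in mutant paraxial tissue. The wild-type arrays of the 2 tissues overlapped, with wild-type neural tube 2 the lowest of all 8. The average difference was 0.01 (95% interval -0.51 to 0.53, limma adjusted p = 0.982). The second Ntn1 probe, on the same chromosome, read 13.39 and 14.15 in wild-type neural tube, where its order of the embryos was the reverse of the first probe's. It gave an average tissue difference of 0.42 ± 0.15 (limma adjusted p = 0.123 over 42754 probes), so the probes differ on the size of the tissue difference.

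Among the receptors, Robo3 and Dcc rose in neural tube and Robo1 and Robo2 did not pass. Robo3 read 14.16 and 12.72 in wild-type neural tube, 9.26 and 12.69 in mutant neural tube, 12.49 and 9.90 in wild-type paraxial tissue, and 7.33 and 7.84 in mutant paraxial tissue. Within each embryo neural tube was the higher, by 1.67 and 2.83 in wild type and by 1.93 and 4.86 in mutants, yet mutant neural tube 1 lay below both wild-type paraxial arrays. The average difference was 2.82 ± 0.57, a 7.07-fold higher level in neural tube (limma adjusted p = 0.0227).

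Dcc, the netrin receptor of commissural axons, read 14.36 and 13.28 in wild-type neural tube, 12.70 and 13.77 in mutant neural tube, 13.20 and 11.52 in wild-type paraxial tissue, and 10.94 and 10.68 in mutant paraxial tissue. Tissues were apart in each genotype, and most widely in mutants, where the difference was 2.43 ± 0.41 (limma adjusted p = 0.0234). Averaged over genotypes it was 1.94 ± 0.29, or 3.85-fold (limma adjusted p = 0.00809). These values come from 1 of 3 probes named Dcc. A second probe in the same gene gave 1.81 ± 0.31 (limma adjusted p = 0.0133 over 42754 probes). The third and brightest probe gave -0.19 ± 0.11 and varied only from 13.67 to 14.19 over the arrays. That probe is a short tandem repeat, with 93% of its bases equal to a base at most 4 positions before, and the design places it on chromosome 7 while Dcc lies on chromosome 18. It was left out, as were all 33 probes on the array with a share above 80%.

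Robo1, a Slit receptor, read 9.33 and 9.52 in wild-type neural tube, 7.09 and 9.02 in mutant neural tube, 8.73 and 8.57 in wild-type paraxial tissue, and 8.56 and 7.93 in mutant paraxial tissue. The wild-type tissues were apart, whereas mutant neural tube 1 was the lowest of all 8 arrays. The average difference was 0.29 (95% interval -0.58 to 1.17, limma adjusted p = 0.668). Robo2, the other Slit receptor of the pair, read 10.99 and 11.82 in wild-type neural tube, 11.26 and 11.53 in mutant neural tube, 10.64 and 11.09 in wild-type paraxial tissue, and 10.63 and 11.01 in mutant paraxial tissue. It was higher in neural tube within all 4 embryos, by 0.35 to 0.73. Its average difference of 0.56 ± 0.15 narrowly missed the threshold (limma adjusted p = 0.0524), and its second probe gave 0.55 ± 0.22.

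Of the adhesion proteins, Cntn2 rose in neural tube and L1cam did not pass. Cntn2 read 15.61 and 15.60 in wild-type neural tube, 13.29 and 15.51 in mutant neural tube, 14.63 and 13.49 in wild-type paraxial tissue, and 11.95 and 12.66 in mutant paraxial tissue. On this probe both wild-type neural tube arrays and mutant neural tube 2 lay close together. Mutant neural tube 1 lay apart from them, below both wild-type paraxial arrays. The average difference was 1.82 ± 0.34, or 3.53-fold (limma adjusted p = 0.0177). A second Cntn2 probe was well above background on 4 of 8 arrays, and no fold is given for it. On that probe mutant neural tube 2 read 7.60, below both wild-type neural tube arrays (8.31 and 8.95).

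L1cam read 13.02 and 12.79 in wild-type neural tube, 11.07 and 13.03 in mutant neural tube, 12.69 and 11.39 in wild-type paraxial tissue, and 10.97 and 11.24 in mutant paraxial tissue. The wild-type tissues were apart by a narrow margin and the mutant tissues overlapped. Its average difference was 0.91 ± 0.34 (limma adjusted p = 0.144).

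Which genes passed depended on single arrays, as did the count over all genes, which was 3464 for the averaged tissue comparison. Slit1 passed the averaged tissue comparison without any 1 of the 8 arrays, and so did Dcc. Leaving out wild-type neural tube 2, wild-type paraxial 2 or mutant paraxial 2 left 2 of the genes past the threshold (Slit1 and Dcc), while the count over all genes became 1859, 1492 and 1877. Of the other neural tube arrays, leaving out mutant neural tube 2 left 4 (of 1836), leaving out wild-type neural tube 1 gave 6 without Robo3 (of 3473), and leaving out mutant neural tube 1 gave 7 (of 2461), with Robo1 and L1cam added to the 5. Mutant neural tube 1 and wild-type paraxial 1, a pair chosen after seeing the data, were also left out together. The median tissue difference of the 10 genes was then 1.49, against -0.05 for all genes. Which genes passed (limma, adjusted p under 0.05) changed again without a whole embryo. The median of the 10 was 1.28 and 0.77 without wild-type embryos 1 and 2, and 1.31 and 0.80 without mutant embryos 1 and 2. With all arrays it was 1.02. Slit1 did not pass within wild type once any of the 4 wild-type arrays, or a whole mutant embryo, was left out. Which genes passed within mutants also depended on single arrays. The median of the 10 genes within mutants was 0.99 with all arrays, and 1.46 and 0.60 without mutant neural tube 1 and 2. Without mutant paraxial 1 and 2 it was 1.26 and 0.81. In a fit that ignored which tissues shared an embryo, Slit1 was the 1 guidance gene that passed on average, out of 577 genes in all. Within wild type and within mutants 0 passed, out of 4 and 0 genes in all. With the replicate number, which coincides with the slide row, as the block in its place, Slit1 again was the 1 that passed on average, out of 1160, and 0 passed within either genotype. With the embryo as a fixed term 4 passed on average (Slit1, Robo3, Dcc and Cntn2), out of 2011. Within wild type and within mutants 0 passed, out of 51 and 250.

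The second comparison asks whether guidance transcripts differed after loss of Geminin in each tissue. No guidance gene passed in neural tube or in paraxial tissue (0 of 10 in each, against 0% of all genes by limma). At an unadjusted limma p under 0.05 there were 0 of 10 in neural tube, where 3.57% of all genes were past it, and 2 of 10 in paraxial tissue, Robo3 and Dcc, where 3.33% were. In both tissues 8 of the 10 differences were negative, that is, lower in mutants, against 51.6% and 47.6% of all genes. Their median was -0.69 in neural tube and -0.44 in paraxial tissue, against -0.01 and 0.02 for all genes. The neural tube figure rests on 1 array: without mutant neural tube 1, 5 of the 10 differences were negative and the median was -0.10. Without wild-type paraxial 1, 8 of the 10 in paraxial tissue were negative, with a median of -0.31, and 0 of the 10 were at an unadjusted limma p under 0.05. None was at that p without mutant paraxial 2 either (median -0.36), and the median was -0.70 without wild-type paraxial 2 and -0.93 without mutant paraxial 1.

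In paraxial tissue both mutant arrays lay below both wild-type arrays for 7 of the 10 genes, Slit2, Ntn1, Robo1, Robo3, Dcc, Cntn2 and L1cam, a pattern seen in 15.2% of all genes. The 7 are not separate observations. Slit2, Robo3, Dcc, Cntn2 and L1cam varied together over the 8 arrays, with a Pearson r of 0.85 to 0.98 between any pair of them. Robo3 showed the largest difference of the 10, -3.61 ± 1.28 (95% interval -6.65 to -0.56, limma adjusted p = 0.998). Cntn2 differed by -1.76 ± 0.77 and Dcc by -1.55 ± 0.65, each with the same adjusted p. With single arrays or embryos left out, the difference ran from -4.9 to -2.31 for Robo3, from -2.33 to -1.19 for Cntn2 and from -2.39 to -0.71 for Dcc. L1cam differed by -0.93 ± 0.76, and Slit2, Robo1 and Ntn1 by -0.47, -0.40 and -0.33. The remaining genes differed by 0.20 at most, namely Slit3 (0.20), Slit1 (0.15) and Robo2 (-0.05), and their groups overlapped. Neuron markers moved the same way, since 16 of 20 were lower in mutant paraxial tissue (median -0.97), and their part in the result was not tested. Markers of some other cell types also differed there, none past the adjusted threshold, and 47.6% of all genes were lower. Sclerotome genes were split, with 7 of 16 lower (median 0.08), and 3 of 10 floor plate genes were lower (median 0.51). Of 18 dermomyotome and myotome genes 17 were lower in mutant paraxial tissue (median -1.02), as were 13 of 15 neural progenitor genes (median -0.49), 10 of 13 neural crest and dorsal root ganglion genes (median -0.75) and 9 of 10 motor neuron genes (median -0.82). All 14 surface ectoderm genes (median 0.79), all 14 endothelial genes (median 0.69) and all 9 erythroid genes (median 0.77) were higher, and their part in the result was not tested either.

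In neural tube both mutant arrays lay below both wild-type arrays for 3 genes, Robo1, Robo3 and Cntn2, against 15.7% of all genes, and above them for Ntn1, against 16.1%. For Robo3 and the brighter Cntn2 probe mutant array 2 (12.69 and 15.51) came close to the lower wild-type array (12.72 and 15.60). Mutant array 1 lay far below (9.26 and 13.29). Robo3 differed by -2.46 ± 1.28 (95% interval -5.51 to 0.58), Robo1 by -1.37 ± 0.83 and Cntn2 by -1.21 ± 0.77 (limma adjusted p = 0.924 for each). With single arrays or embryos left out, these ran from -4.18 to -0.75, from -2.52 to -0.22 and from -2.32 to -0.09. Slit1 differed by 0.11 (95% interval -0.58 to 0.81) and Robo2 by -0.01 (95% interval -0.78 to 0.76). Ntn1 differed by 0.59 ± 0.49 on the brighter probe and by -0.24 ± 0.33 on the other, so the sign depends on the probe.

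Averaged over both tissues, 0 of the 10 passed the mutant comparison (0% of all genes by limma), and 1 of them, Robo3, was past an unadjusted p of 0.05 (2.94% of all genes). The mutant difference was also compared between the tissues. No guidance gene passed (0 of 10 by limma, with 0 at an unadjusted p under 0.05, against 5.09% of all genes). The values lay between -0.96 for Robo1 and 1.15 for Robo3, where a positive value means a mutant level relatively higher in neural tube than in paraxial tissue.

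**Figure D2:**
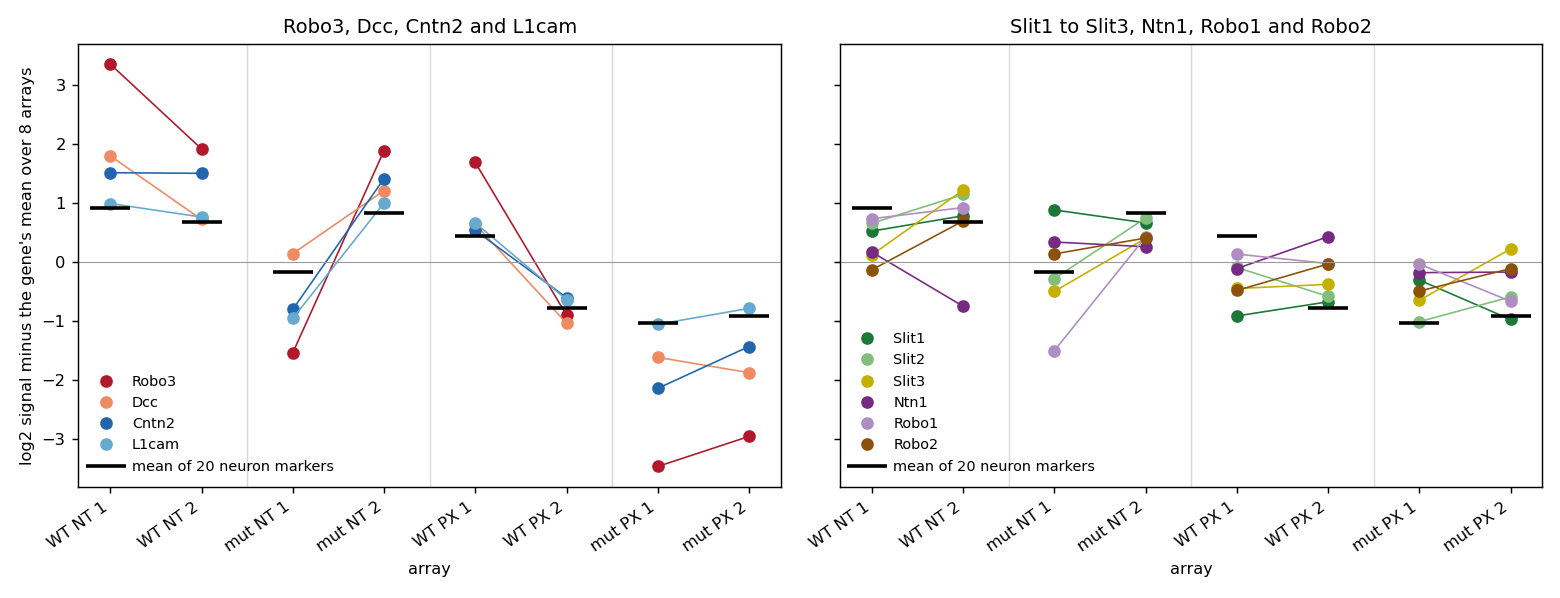
Deviation of each guidance gene from its own mean over the 8 arrays (log2, vertical axis), by array, with the mean of 20 neuron markers as black bars and lines joining the arrays of a group. In the left panel Robo3, Dcc, Cntn2 and L1cam dip in mutant neural tube 1 and stand high in wild-type paraxial 1; in the right panel Slit1 keeps to its tissue and Ntn1 follows neither.

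Robo3, Cntn2, L1cam and Dcc varied together across the arrays, and mostly as the neuron markers did. Mutant neural tube 1 was the lowest neural tube array for 7 of the 10 guidance genes (31.3% of all genes), and by at least 1 for 4 of them (3.6% of all genes). For Robo3 it was 10.8-fold below the next lowest array, for Cntn2 4.68-fold, for Robo1 3.79-fold and for L1cam 3.30-fold. Wild-type paraxial 1 was the highest paraxial array for 6 of the 10 (29.3% of all genes), and by at least 1 for 4 (2.61% of all genes). Robo3 was 6.03-fold above the next highest array there, Dcc 3.19-fold, L1cam 2.46-fold and Cntn2 2.20-fold. Both arrays were singled out after seeing the data, so these shares are descriptions. Genes that varied together are not separate observations here either.

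Robo3 went beyond the neuron markers on both arrays. Its value in mutant neural tube 1 lay 3.93 below the mean of the other neural tube arrays, a drop exceeded by no neuron marker, of which the lowest was Dcx at -2.37. In wild-type paraxial 1 it lay 4.13 above the mean of the other paraxial arrays, against at most 2.69 among the markers (Nhlh2). With the neuron marker mean of each array subtracted, the deviation of Robo3 was 2.44 and 1.25 in wild-type neural tube, -1.38 and 1.05 in mutant neural tube, 1.24 and -0.13 in wild-type paraxial tissue, and -2.42 and -2.05 in mutant paraxial tissue. This subtraction takes the gene and the markers to move by equal amounts, and whether the lower Robo3 of the mutant arrays goes with their neuronal content was not tested. L1cam, treated alike, stayed between -0.01 and 0.22 on 7 arrays and reached -0.80 in mutant neural tube 1. Dcc ranged from -0.97 to 0.88 and Cntn2 from -1.10 to 0.83.

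Across the 8 arrays, which come from 4 embryos and share their scaling, the Pearson correlation of Robo3 was 0.98 with Cntn2, 0.95 with L1cam and 0.94 with Dcc. That of Slit2 with Cntn2 was 0.95, whereas that of Ntn1 with each other guidance gene ran from -0.60 to 0.06. Among 8207 genes with an SD over arrays of at least 0.5, the patterns nearest to that of Robo3 belonged to AI854517 (0.993), Cdk5r2 (0.991), Cemip2 (0.990), Mtnr1a (0.987) and 9130015G15Rik (0.987). The nearest to Dcc were an unnamed intergenic transcript (0.998), Ptpn5 (0.995), Crb1 (0.993), Garem2 (0.991) and Sstr2 (0.991). For Slit1 they were Pipox (0.987), Mkrn1 (0.979), Khdrbs3 (0.978), an unnamed transcript (0.978) and Nkx6-1 (0.976), a homeobox gene of the ventral neural tube. Ntn1 itself varied less than that SD (0.38), so genes as even as Ntn1 were not searched. Among those searched the nearest to it were Zfp608 and Myl6b (both 0.922), Sppl2a (0.897), LOC100046795 (0.859) and Gm17769 (0.856).

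**Figure D3:**
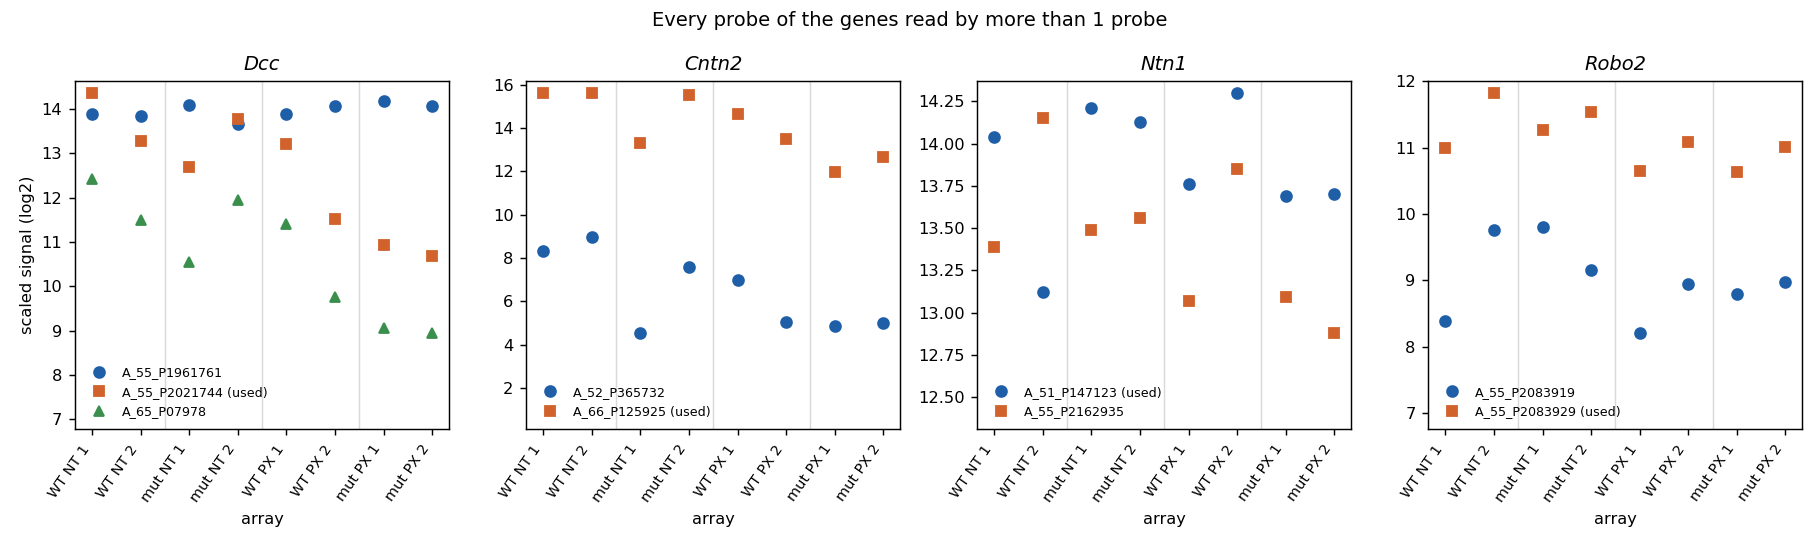
Scaled log2 signal (vertical axis) of every probe of the 4 guidance genes read by more than 1 probe, by array. The 2 kept Dcc probes run in parallel while the repeat probe stays between 13.67 and 14.19, and the 2 Ntn1 probes part on the wild-type neural tube arrays.

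Some partners of these genes also differed between the tissues. Counts are over genes tested, at a limma adjusted p under 0.05 for the tissue difference averaged over genotypes, and are to be read against the 6% of all genes that were higher in neural tube and the 12% that differed either way. Of 16 netrin receptors, relatives and modulators, 3 rose in neural tube and 2 fell. Unc5a, a receptor through which netrin repels, differed by 2.04 ± 0.35, Nell2, a secreted ligand of Robo3, by 1.65 ± 0.20, and Draxin, a secreted ligand of Dcc, by 0.98 ± 0.20. Netrin 3 (Ntn3) fell by 1.20 ± 0.20, and Unc5b, a relative of Unc5a, by 1.13 ± 0.28. Of 23 modulators and effectors of Slit and Robo signalling, 3 rose and 1 fell: the Robo-binding GTPase-activating proteins Srgap3 (1.84 ± 0.24) and Srgap1 (0.63 ± 0.12), the heparan sulfate enzyme Hs6st1 (1.22 ± 0.14), and Flrt3 (-0.82 ± 0.16), a membrane partner of Robo1. These 4 of 23 are near the share of all genes.

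Against the same shares (6% of all genes higher, 12% either way), axonal relatives of Cntn2 and L1cam in the immunoglobulin family, listed with a cadherin, gave 4 of 12 higher and 0 lower, among them Nrcam (2.14 ± 0.27), Chl1 (2.03 ± 0.36) and Nfasc (1.58 ± 0.35). Of 12 genes of Wnt and planar polarity guidance, which steers axons after the midline, 7 rose and 0 fell, with Celsr2 at 2.28 ± 0.28 and the Wnt receptor Fzd3 at 1.04 ± 0.11. Of 19 semaphorins and semaphorin receptors 1 rose in neural tube and 4 fell, among them Sema3a at -1.27 ± 0.15 and its receptor Nrp1 at -0.87 ± 0.17. Of 9 genes of Shh-based guidance 1 rose, Shh itself (2.32 ± 0.13), and 2 fell, among them Hhip (-1.29 ± 0.20), which binds Shh. Of 21 cytoplasmic effectors 5 rose, among them Dpysl3 (0.98 ± 0.16), and 1 fell, Dock1 (-0.98 ± 0.14).

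Transcription factors of commissural and other dorsal or intermediate spinal neurons gave 5 of 13 higher and 0 lower, against 6% of all genes higher, among them Dbx1 (1.95 ± 0.23) and Neurog1 (1.76 ± 0.32). Their mean deviation by array was 1.25 and 0.69 in wild-type neural tube, -0.54 and 0.84 in mutant neural tube, 0.36 and -1.22 in wild-type paraxial tissue, and -0.61 and -0.76 in mutant paraxial tissue. Mutant neural tube 1 was thus the low neural tube array and wild-type paraxial 1 the high paraxial array for these factors as for Robo3. For the mutant difference, 0 genes of any of these 8 lists passed in either tissue. Of the 13 neuronal factors 10 were lower in mutant paraxial tissue (median -0.58), the sign of Robo3, against 47.6% of all genes. None of these 10 was at an unadjusted limma p under 0.05. The 2 factors at that p, against 3.33% of all genes, were among the other 3, with the sign opposite to Robo3. They were Lmx1b, at 1.5 ± 0.47, and Lhx2, a factor of dorsal commissural neurons, at 2.15 ± 0.73 (limma adjusted p = 0.998 for each). In the tissue comparison within mutants 4 of the 13 passed as higher in neural tube and 2, Lmx1b and Lhx2, as lower. Of all genes 2.68% passed there as higher and 5.82% in either direction. Shh stood higher in mutant neural tube by 1.07 ± 0.30 (limma adjusted p = 0.924). Slit1 differed by 0.11 there, the brighter Ntn1 probe by 0.59 and the other Ntn1 probe by -0.24.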

How the data were processed

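Per the labels' protocols, RNA from laser-captured tissue was isolated with the PicoPure kit and its cDNA labelled with Cy5. Per the file headers, the deposited intensity of a spot is the processed red-channel signal on a linear scale, made with Agilent Feature Extraction 11.0.1.1, and arrays were not pooled. The authors' deposited series table holds the same intensities (differing by at most 0.497%) and served as an alternative. All 8 arrays lie on 1 slide.

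Control spots and spots marked as outliers were dropped, spots of a probe averaged, log2 taken and each array's 75th percentile subtracted. A probe had to be marked well above background on each array of some group and not be repetitive (33 probes, a filter added after seeing the data). The brightest kept probe stood for a gene. A model of 4 group means with the embryo as a random block (consensus correlation 0.601) was fitted to 28925 genes with limma 3.58.1 in R 4.3.3. Moderated statistics (eBayes) were adjusted by Benjamini-Hochberg, with calls at 0.05. The model had 4 residual degrees of freedom, and the number of arrays limits the precision. Standard errors are those of the model. The code was tested on simulated data.

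Named genes are all members, Gmnn, up to 4 genes with the smallest p per list described, and the 5 nearest patterns of Robo3, Dcc, Ntn1 and Slit1; the neuron markers at the extremes and Unc5b were named after seeing values. The members and lists were chosen with earlier results of these data known. Both tissues of an embryo deviated together (r 0.562 in wild type and 0.606 in mutants, across genes), and the labels give the shared embryo, which is the source of the pairing.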

Additional observations from a re-analysis of the deposited data

Results flagged for a closer look

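Ntn1 showed mutant differences of opposite sign in the 2 tissues, with every array of a group on the same side. Both mutant arrays lay above both wild-type arrays in neural tube and below both in paraxial tissue. The margins were narrow: the nearest mutant and wild-type values were 14.13 and 14.04 in neural tube, and 13.70 and 13.76 in paraxial tissue. The mutant difference in neural tube minus that in paraxial tissue was 0.93 ± 0.44 (SE, with 2 embryos per genotype). It ran from 0.20 to 1.65 with single arrays or embryos left out. The mutant difference in neural tube alone ran from -0.02 to 1.21, and that in paraxial tissue from -0.87 to 0.21, so neither sign held throughout. The difference between the tissues did not pass its limma test (adjusted p = 0.968). The other Ntn1 probe did not show the pattern, since its mutant difference was -0.24 in neural tube and -0.48 in paraxial tissue.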

How the results depend on the processing

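Counts are guidance genes past a limma adjusted p of 0.05. For the tissue difference in wild type (1 gene, out of 702 over all genes) the count was 2 with normexp background correction (out of 1492). It was also 2 with trend and robust moderation (out of 1088), and 0 when only the arrays of the comparison were fitted (out of 162). With single arrays or embryos left out, the median difference of the 10 genes ran from 0.68 to 1.53, against 1.16 with all arrays. In mutants (2 genes, out of 1682) the count was 4 with median scaling (out of 1911) and with trend and robust moderation (out of 2002). It was also 4 with only probes well above background on all arrays (out of 1712). It was 1 with no filter on dim probes (out of 597) and with repetitive probes kept (out of 1680). With arrays or embryos left out, the median difference of the 10 genes ran from 0.60 to 1.49, against 0.99 with all arrays. Averaged over genotypes (5 genes, out of 3464) which genes passed changed with arrays or embryos left out. The median difference of the 10 genes ran from 0.75 without mutant neural tube 2 to 1.34 without mutant neural tube 1. The embryo correlation was held at its value from all arrays in these leave-out fits. No mutant comparison gained a guidance gene under any alternative (0 to 0), although other genes passed: 7 in paraxial tissue and 15 for the difference between tissues without wild-type paraxial 2, 16 and 19 without mutant paraxial 1, 5 and 6 without mutant embryo 1, and 4 for the difference between tissues with cyclic loess scaling.

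With no replicate block the tissue counts were 0 in wild type, 0 in mutants and 1 averaged (out of 4, 0 and 577 over all genes). With the replicate number, shared with the slide row, as a replicate block they were 0, 0 and 1 (out of 104, 63 and 1160). With the embryo as a fixed replicate block they were 0, 0 and 4 (out of 51, 250 and 2011). Same-numbered wild-type and mutant embryos share a number and a slide row, and the labels give no other link (r of deviations across genes 0.291 in neural tube and 0.292 in paraxial tissue).

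Signs reversed for small differences. Robo2 in mutants became 0.04, 0.08 and 0.0077 in neural tube with quantile, median and cyclic loess scaling and 0.20 with the mean of its probes, and 0.02, 0.06, 0.04 and 0.13 in paraxial tissue with quantile scaling, median scaling, normexp and the probe mean. Slit1 became -0.0062 in mutant neural tube with quantile scaling, and the averaged tissue difference of Ntn1 became -0.0022 with median scaling and -0.02 with normexp. With the repetitive Dcc probe kept, Dcc gave -0.25 for the tissue difference in mutants, -0.19 averaged, and 0.01 and 0.15 for the mutant difference in neural tube and paraxial tissue. Median scaling moved the median paraxial difference of all genes to 0.12.

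With single arrays or embryos left out, the averaged tissue difference ran from -0.35 to 0.38 for Ntn1 and from -0.34 to 0.93 for Robo1. The mutant difference in neural tube ran from -0.02 to 0.24 for Slit1, -0.02 to 1.21 for Ntn1, -0.43 to 0.41 for Robo2, -1.2 to 0.03 for Dcc and -1.84 to 0.12 for L1cam. In paraxial tissue it ran from -0.18 to 0.49 for Slit1, -0.24 to 0.63 for Slit3, -0.87 to 0.21 for Ntn1, -1.3 to 0.49 for Robo1 and -0.27 to 0.18 for Robo2. The difference between the tissues in the mutant effect ran from -0.31 to 0.23 for Slit1, -2.24 to 0.31 for Robo1, 0.20 to 1.65 for Ntn1 and -0.42 to 2.71 for Robo3. None of the differences in this paragraph passed with all arrays, and the cause was not tested. A lone array in a group was assumed to vary like the other groups. The embryo as a fixed term leaves no genotype comparison, and fits of 4 arrays give no averaged value.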
